A study of Mus musculus with 4 samples.

Results

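S100a8 and S100a9 (mouse genes 20201 and 20202) encode the subunits of calprotectin, and both are on the array, among 13410 named genes. They were picked by symbol because earlier results of these data had placed them among the genes farthest from 0, so their values are described here without a test. Lung RNA, amplified before labelling, came from 4 bleomycin-treated mice of the inbred strain A/J, numbered 1 to 4, and each mouse had its own 2-colour array. The other RNA on every array was 1 pool from lungs of control A/J mice, so the groups share the strain, the tissue and the amplification. They differ by bleomycin, a DNA-damaging drug that injures the lung, and as single mice against a pool. The dye of each RNA was not considered here, so dye and treatment could not be told apart. The sources used here do not state the dose, the route, the time after treatment, the age of the mice or how many control mice the pool holds. The labels number the treated mice separately, so each was taken as 1 replicate, and the spread between control mice could not be seen.

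Calprotectin is a heterodimer of 2 small calcium-binding proteins of the S100 family. It makes up a large part of the cytosolic protein of neutrophils, is also made by monocytes and by stressed stratified epithelium, binds zinc and manganese away from microbes, and acts outside the cell on Toll-like receptor 4 and on the receptor encoded by Ager. In the lung, blood that stays in the vessels and leukocytes that enter the tissue both bring neutrophil RNA. In RNA of a whole organ, a difference in the number of cells of a type cannot be told apart from a difference in RNA per cell.

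Each value is a log ratio of the 2 RNAs on an array, read here as log2 and centred so that the median spot of the array is at 0. Which RNA is on top of the ratio is not stated. By the order of the titles it would be the treated mouse, and a value below 0 would then mean less transcript in the treated lung, but this is not settled, and with the pool as numerator every sign would turn. Fold sizes hold only if the logarithm, whose base the sources do not name, has base 2. Between 9427 and 12136 of 17280 spots had a value on an array, and across the 6911 spots with 4 values the arrays of mice 1 and 2 (Pearson's r = 0.748) and of mice 3 and 4 (r = 0.866) resembled each other more than any other pairing (r from 0.456 to 0.583). Genes, or spots, are not independent replicates. The number of arrays limits the precision.

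Both genes lie on chromosome 3, where 15 of the 16 S100a genes of the RefSeq table of the assembly GRCm38.p6 are found. In the order of protein-coding genes, S100a5, S100a6 and S100a7a precede S100a8, and S100a9 and Pglyrp4 follow it, with 0 protein-coding genes between S100a8 and S100a9. The pair is read from opposite strands. Since the log ratios of the 2 genes stayed close on every array, the stretch around each annotated start is shown, from 130 bases before it to 20 bases after it, 5′ to 3′ on the strand of the gene (RefSeq, GRCm38.p6). The S100a8 stretch is chr3:90668941-90669090 on the plus strand, and that of S100a9 is chr3:90695702-90695851 on the minus strand. Capitals mark matches to TATAAA, the TATA box, on the strand of the gene, and to TTNNGNAA, a loose form of the site of C/EBP factors of myeloid cells, on either strand.
S100a8: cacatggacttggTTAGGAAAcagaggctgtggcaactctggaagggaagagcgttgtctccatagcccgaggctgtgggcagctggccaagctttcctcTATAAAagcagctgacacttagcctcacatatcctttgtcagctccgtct
S100a9: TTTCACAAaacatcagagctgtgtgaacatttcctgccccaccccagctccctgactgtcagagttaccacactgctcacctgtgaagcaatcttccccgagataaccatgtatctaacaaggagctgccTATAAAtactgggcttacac

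The TATA box letters begin 30 bases before the annotated start of S100a8, and in S100a9 at the base of the annotated start itself. Of 32851 promoter windows of 300 bases (250 before and 50 after a start), 8.32% hold TATAAA on the strand of the gene and 1.99% hold it beginning 20 to 40 bases before the start. Of the 10 other S100 genes of the array with a promoter window, 1, S100a4, has it in that stretch. A match to TTNNGNAA lies in 40.7% of all windows on either strand. In the windows of these genes it begins 117 bases before the start of S100a8, on the strand of the gene, and 130 and 236 bases before that of S100a9, on the other strand. The other letters searched on both strands were GAGGAA, part of the site of the myeloid factor PU.1, and TGANTCA, the AP-1 site. GAGGAA (28.3% of windows) begins 36 and 170 bases before the start of S100a8 on the other strand and is absent from the S100a9 window, and TGANTCA (7.81% of windows) is in neither window. The searches overlap at no base of the printed stretches. A match describes letters only.

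S100a8, the smaller subunit, had log ratios of -1.63, -1.95, -3.02 and -2.52 in mice 1, 2, 3 and 4. Its mean was -2.28 ± 0.62 (SD, n = 4), a difference of 4.85-fold between treated lung and pool (9.76-fold if the logarithm were natural). S100a9, the larger subunit, had log ratios of -1.50, -1.50, -2.99 and -2.35 in the same mice, with a mean of -2.08 ± 0.72 (SD, n = 4), or 4.24-fold. All 8 values lay below 0, and both genes were farther from 0 in mice 3 and 4 than in mice 1 and 2. Each gene has 1 probe on the array, so no second probe could be set beside it. These values chose the genes.

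**Figure D1:**
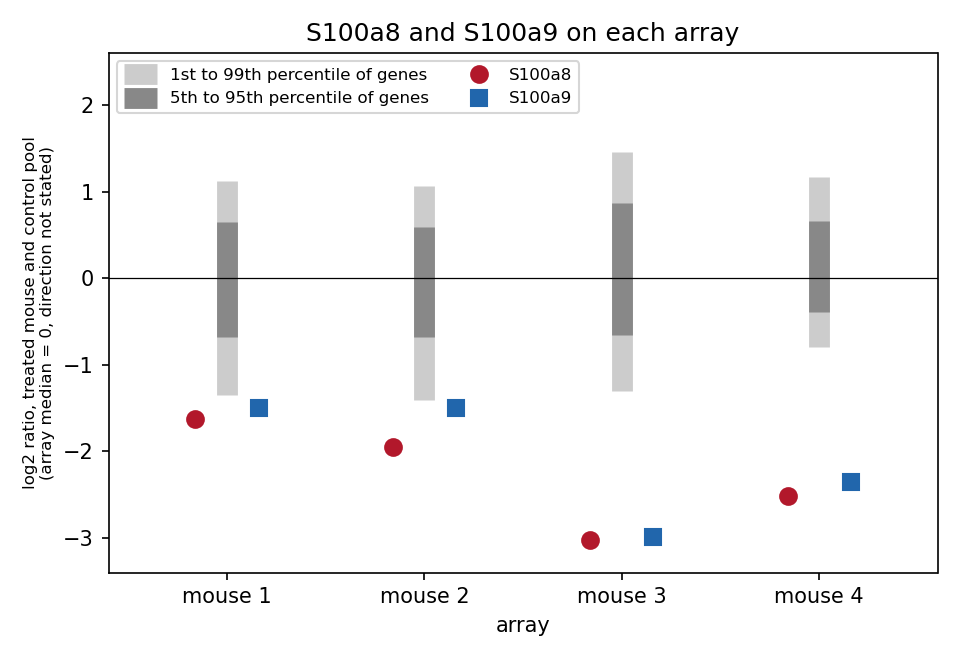
Log2 ratio (vertical axis) of S100a8 (circles) and S100a9 (squares) on each of the 4 arrays (horizontal axis), with bars for the range of the 1st to 99th and the 5th to 95th percentile of all named genes on that array. Both genes lie below the 1st percentile on every array, from -1.50 to -3.02.

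On each array the 2 genes stood beyond the 1st percentile of genes, which was at -1.35, -1.41, -1.30 and -0.79 in mice 1 to 4. Ranked from the lowest value, S100a8 was number 63 of 9994 genes with a value in mouse 1 and 40 of 9500 in mouse 2. It was number 8 of 7941 for mouse 3 and 3 of 8590 for mouse 4. S100a9 was number 81, 78, 9 and 5. The arrays differed in width, with median absolute deviations over spots of 0.254, 0.255, 0.292 and 0.190. In units of that deviation S100a8 lay at -6.43, -7.63, -10.3 and -13.3, and S100a9 at -5.92, -5.86, -10.2 and -12.4. The distance in mouse 3 was thus the largest in log ratio and that in mouse 4 the largest in array widths, while mice 1 and 2 were the nearest to 0 on both scales. Of 6057 genes with 4 values, 6 were below -1 on every array, namely S100a8, S100a9, the fast muscle myosin light chain gene Myl1, the antimicrobial lectin gene Reg3g and the respiratory chain genes Atp5k and Cox6c.

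The subunits followed each other closely. S100a8 was below S100a9 in 4 of 4 mice, by 0.13, 0.45, 0.03 and 0.17 on the log2 scale, with a mean difference (S100a8 minus S100a9) of -0.20 ± 0.18 (SD, n = 4). The mean of both genes was -1.57, -1.72, -3.004 and -2.43 in mice 1 to 4. The distance between mice 1 and 3 was therefore larger than the distance between the subunits in any mouse. In mice 1 and 2 the mean was -1.79 for S100a8 and -1.50 for S100a9, and in mice 3 and 4 it was -2.77 and -2.67. These pairs of mice are no groups of the study, and the difference between them was not tested.

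The other S100 genes with a value had means nearer to 0 than calprotectin. S100a4 came closest, and lay farther from 0 than both subunits in mice 1 and 2. Of 9 other S100a genes on the array, 8 had at least 3 values and 1, S100a1, a calcium sensor of muscle, had values in mice 1 and 3 alone (0.26 and 0.24). All 8 had a mean below 0, from -1.95 to -0.08 with a median of -0.39, against 49.8% of all 8384 genes tested and a median of 0.00 over them. S100a3, S100a4 and S100a14 were below 0 on every array. With S100g, the vitamin D-dependent calcium-binding protein of the gut, 9 S100 genes were tested and 0 passed limma (adjusted p at most 0.05 over all genes), with 2 at an unadjusted p under 0.05. Among all genes 12.5% passed and 31.8% had such an unadjusted p. S100b, the glial member, has a probe with a value on 0 arrays.

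S100a4, which marks motile fibroblasts and some leukocytes, had log ratios of -3.29, -2.93, -0.97 and -0.61. Its mean of -1.95 ± 1.36 (SD, n = 4) was close to that of S100a9, but the order of the mice was the other way round, with mice 1 and 2 farthest from 0. S100a4 did not pass limma (adjusted p = 0.0552), and passed at 0.0485 when genes with a missing value were left out. With 1 mouse left out, its limma adjusted p ran from 0.0654 to 0.137. S100a6, or calcyclin, the gene next but one to S100a8, stood at -0.78, -1.34, -0.09 and 0.09. S100a14, a gene of epithelia, stood at -0.63, -0.99, -0.25 and -0.26 (mean -0.53 ± 0.35, SD, n = 4; limma adjusted p = 0.0594). Both were thus also farther below 0 in mice 1 and 2. S100a13, which takes part in the release of proteins without a signal peptide, was lowest in mice 3 and 4 (-1.28 and -0.67, against -0.17 and 0.17 in mice 1 and 2), as calprotectin was. S100a11, a gene of many epithelia, was at -1.26 in mouse 2 and between 0.01 and 0.09 in the other mice. S100a3 (mean -0.25), S100a5 (-0.08), S100a16 (-0.09) and S100g (-0.13) stayed closer to 0 in the mean. Like S100a13, S100g was lowest in mice 3 and 4 (-1.18 and -0.20, against 0.31 and 0.54 in mice 1 and 2). The mean of S100a5 changed side without mouse 1 (0.004), that of S100a11 without mouse 2 (0.041) and that of S100g without mouse 3 (0.215).

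**Figure D2:**
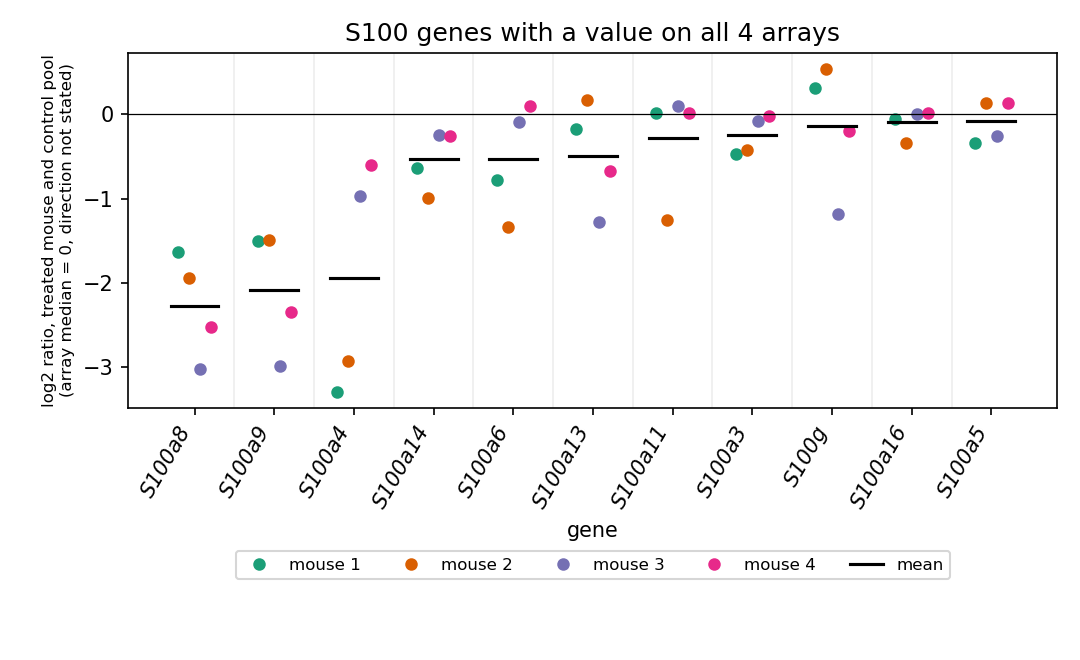
Log2 ratio (vertical axis) of each S100 gene with 4 values (horizontal axis, ordered by mean), with 1 point per mouse and a line at the mean. S100a8, S100a9 and S100a4 have means from -2.28 to -1.95, and the remaining genes have means between -0.53 and -0.08.

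The 10 neutrophil markers that could be tested lay nearer to 0 than calprotectin in each mouse with a value, apart from Lrg1 in mice 1 and 2. Of 36 listed markers 20 were on the array and 10 had at least 3 values. Of these 10, 0 passed limma at an adjusted p of 0.05, against 12.5% of all genes. An unadjusted p under 0.05 was found for 2 of them, against 31.8% of all genes. Their median log ratio was 0.00, and 5 of the 10 had a mean below 0. The granule protease gene Elane had log ratios of -0.07, -0.07, 0.26 and -0.09 (mean 0.01 ± 0.17, SD, n = 4; -0.01 with the arrays scaled to 1 width). Mpo, the myeloperoxidase gene of the primary granules, had -0.08, 0.13, -0.52 and -0.16 (mean -0.16 ± 0.27, SD, n = 4). Neither came near calprotectin in any mouse. Elane and Mpo are transcribed mainly in precursors in bone marrow, whereas S100a8 and S100a9 are transcribed into the mature cell.

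Camp, the gene of the antimicrobial peptide of the secondary granules, had -0.45, 0.03, -0.38 and -0.51 (mean -0.33 ± 0.24, SD, n = 4). Its limma adjusted p was 0.0971, with 0.0451 without mouse 2 and up to 0.256 with another mouse left out. Mmp8, the neutrophil collagenase gene, had 0.28, -0.02 and 0.31 in mice 1 to 3. Of the fixed markers of mature neutrophils, Csf3r, the receptor gene of granulocyte colony-stimulating factor, had values in mice 1 and 2 alone, at 0.00 and -0.36. Cxcr2, the chemokine receptor gene, was at -0.34 and -0.15 in the same mice. The granule genes Ltf (-0.37 in mouse 2 and -0.07 in mouse 3) and Ngp (-0.03 in mouse 1 and 0.19 in mouse 2) and the gelatinase gene Mmp9 (-0.25 in mouse 1) also had too few values for the test, and Ly6g and Lcn2 are not on the array. The surface receptor genes Trem1 (-0.20 and -0.59) and Il1r2 (-0.53 and -0.15), named after their values were seen, had values in mice 1 and 2 alone. Over all listed neutrophil markers with too few values, the lowest was thus at -0.59, while calprotectin was never nearer to 0 than -1.50. Spots can be missing because they were dim, and signal strength was not analysed here.

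A further 4 of the tested markers are named after their values were seen. Lrg1, a secreted glycoprotein of granules and acute phase, had -2.12 and -2.27 in mice 1 and 2 and 0.10 and 0.09 in mice 3 and 4 (limma adjusted p = 0.194). It was the 1 tested neutrophil marker as low as calprotectin in any mouse, and in the mice where calprotectin was nearest to 0. Hp, the haptoglobin gene, was at 0.12, -0.04, 1.15 and 0.97, so above 0 in the mice where calprotectin was lowest (limma adjusted p = 0.158). Prtn3, a protease gene of primary granules, was above 0 in 4 of 4 mice (0.31 ± 0.19, SD, n = 4; limma adjusted p = 0.0794). Cd177, a surface marker of neutrophils, had -0.76, -0.38, -0.09 and -0.03.

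**Figure D3:**
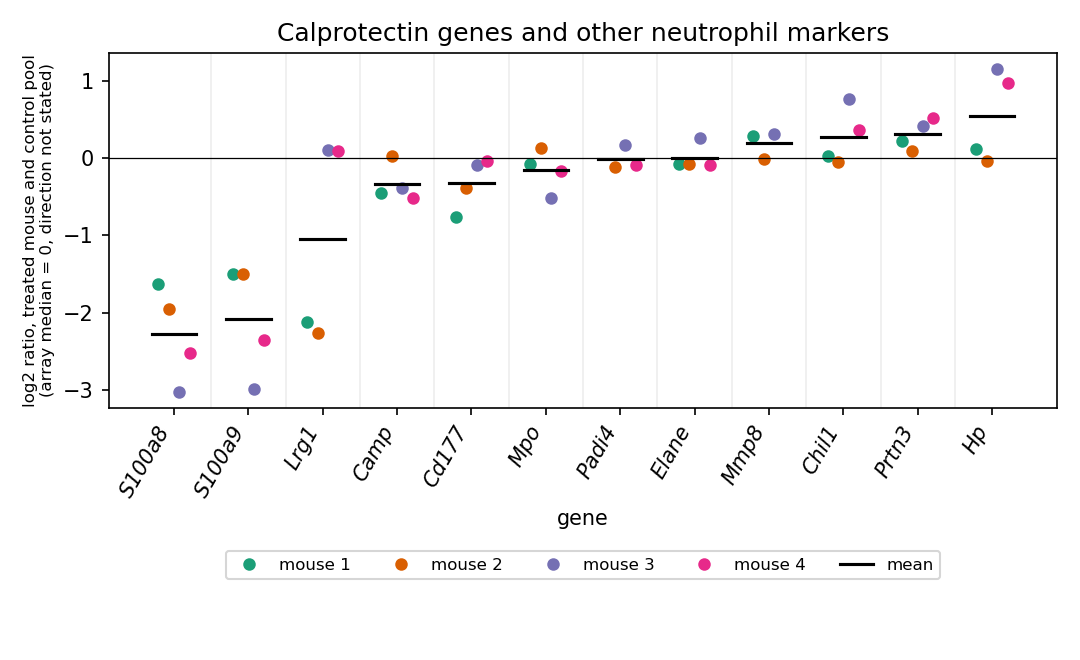
Log2 ratio (vertical axis) of S100a8 and S100a9 and of the 10 tested neutrophil markers (horizontal axis, ordered by mean), with 1 point per mouse and a line at the mean of the mice with a value. Apart from Lrg1 in mice 1 and 2, the markers lie between -0.76 and 1.15, above both calprotectin genes.

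Genes of the other cells that can express calprotectin lay on both sides of 0. Of 30 monocyte and macrophage markers 13 were tested, and 2 passed limma above and 3 below 0, where 7.69% and 4.81% of all genes passed; the list median was -0.07. Cx3cr1, the fractalkine receptor gene of patrolling monocytes, had -0.98, -1.44, -1.36 and -0.84, with a mean of -1.15 ± 0.29 (SD, n = 4; limma adjusted p = 0.00865). Cd163, the haemoglobin scavenger receptor gene, had -0.58, -0.61, -0.97 and -0.63 (mean -0.70 ± 0.18, SD, n = 4; limma adjusted p = 0.0125). Both were below 0 in every mouse, at a smaller distance than calprotectin, and passed limma whichever mouse was left out. Plin2, a lipid droplet gene, passed below 0 (-0.82 ± 0.44, SD, n = 4), and Siglecf and Mrc1, lectin genes of alveolar macrophages, above it (0.54 ± 0.13, SD, n = 4, and 0.74 ± 0.16, SD, n = 3). Plin2 did not pass without mouse 1, 2 or 3, nor with mice 1 and 2, and mice 3 and 4, as a random block (limma adjusted p up to 0.102). Siglecf and Mrc1 did not pass when mouse 3 or mouse 4 was left out (limma adjusted p up to 0.0772). Mrc1 has no value in mouse 1, so each of these fits left it 2 values, and Siglecf 3. Marco, a further gene of this list named after its values were seen, had -1.231, -1.465, 0.332 and 0.413 (limma adjusted p = 0.402). Of the 13 tested genes 9 had a mean below 0. Ccr2, the receptor gene of inflammatory monocytes, had a value in mouse 2 alone (0.02), and Lyz2 and Csf1r are not on the array.

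Of 27 markers of stratified epithelium 13 were tested and 0 passed limma, against 12.5% of all genes. An unadjusted p under 0.05 was found for 2 of the 13, against 31.8% of all genes. The medians of the list were -0.32, -1.29, 0.03 and -0.05 for mice 1, 2, 3 and 4. The basal keratin gene Krt5 had -0.96, -2.95, -0.45 and -0.25 (limma adjusted p = 0.144). Sprr1a, a gene of the cornified envelope that was named after its values were seen, had -3.11, -3.77, -0.01 and -0.11 (limma adjusted p = 0.158). This list, like S100a4, S100a6 and S100a14, was farthest below 0 in mice 1 and 2. In mice 3 and 4 its median was within 0.05 of 0. Some listed genes with too few values for the test are named after their values were seen. Krt4 (-0.014 and -3.705), Lor (0.41 and -3.685), Sprr3 and Sfn had values in mice 1 and 2 alone. Pkp1 had a value in mouse 2 alone, and Sprr1b in mouse 4 alone. A link between this list and the calprotectin values was not tested.

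Of 22 genes of red cells and platelets, which mark blood in the tissue, 7 were tested, 1 passed limma above 0 and 1 below (7.69% and 4.81% of all genes), and the median was 0.21. Alas2, the haem synthesis gene of red cell precursors, had 0.41, 0.66, 0.67 and 0.38 (mean 0.53 ± 0.16, SD, n = 4; limma adjusted p = 0.0187). The platelet glycoprotein gene Gp9 had -0.40, -0.22, -0.79 and -0.50 (mean -0.48 ± 0.24, SD, n = 4; limma adjusted p = 0.0418). Alas2 did not pass with any 1 mouse left out (limma adjusted p up to 0.0629). Gp9 did not pass with mouse 1, 3 or 4 left out or with the block (limma adjusted p up to 0.121). The globin genes Hba-a1 and Hbb-b1 are not on the array under these symbols. The part of blood, of epithelium or of macrophages in the calprotectin values was not tested.

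Receptors and signalling genes downstream of calprotectin were tested in 12 of 27 cases, and 2 passed limma above and 1 below 0 (7.69% and 4.81% of all genes), with a median of 0.05. Tirap, the adaptor gene that links Toll-like receptors 2 and 4 to Myd88, had -0.71, -0.87, -0.75 and -1.01 (mean -0.83 ± 0.13, SD, n = 4; limma adjusted p = 0.00710). Tab2, an adaptor gene of the kinase complex below Traf6, had 0.95, 0.75, 1.52 and 1.31 (mean 1.13 ± 0.35, SD, n = 4; limma adjusted p = 0.0121). These genes lay on opposite sides of 0 in every mouse and passed whichever mouse was left out. The kinase gene Irak1 passed above 0 (0.58 ± 0.34, SD, n = 4; limma adjusted p = 0.0479) but not with any 1 mouse left out, nor with the block (limma adjusted p up to 0.118).

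Of the receptors themselves, Ager, which is also abundant in alveolar type I cells, had 1.30, 0.15, 2.02 and 1.18. Its mean of 1.16 ± 0.77 (SD, n = 4) did not pass limma (adjusted p = 0.0521). It passed limma without mouse 2 (adjusted p = 0.0228), with arrays scaled to 1 width (0.0411) and over the genes with 4 values (0.0456). It did not pass without mouse 1, 3 or 4, nor with the block (limma adjusted p up to 0.140). Ager was on the side of 0 opposite to calprotectin in every mouse. Tlr4 has 2 probes and a value in mouse 2 alone (-0.34), and Cd14, its co-receptor gene, in mouse 1 alone (0.17). Cd36, a scavenger receptor gene that binds calprotectin with its fatty acid cargo, was named after its values were seen. It had 1.48, 1.03, -0.02 and 0.75 (limma adjusted p = 0.0763). Without mouse 3 the limma adjusted p was 0.0392, and with another mouse left out it was up to 0.181.

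Cytokine and recruitment genes lay on both sides of 0. Of 33 listed genes 17 were tested and 0 passed limma, against 12.5% of all genes; 5 of the 17 had an unadjusted p under 0.05, against 31.8% of all genes. The list median was -0.10. Cxcl1, a chemokine gene that draws neutrophils through Cxcr2, had -2.68 and -2.92 in mice 1 and 2 and 0.16 and 0.19 in mice 3 and 4 (mean -1.31 ± 1.72, SD, n = 4; limma adjusted p = 0.205). Ccl3, a macrophage chemokine gene named after its values were seen, had -1.41, -1.70, 0.06 and -0.25. The cytokine gene Il6 had -0.70, -1.20, -0.23 and 0.12 (limma adjusted p = 0.169). Tnf was at -1.001, -0.94 and -0.10 in mice 1, 2 and 4 (limma adjusted p = 0.0954). Leaving out mouse 1, 2 or 4 left it 2 values, with a limma adjusted p of 0.279, 0.256 and 0.0409. These 4 genes, which are not the whole list, were lower in mice 1 and 2 than in the other mice with a value, whereas S100a8 and S100a9 were lower in mice 3 and 4. Cxcl15, the chemokine gene lungkine of lung epithelium, named after its values were seen, had 0.07, -0.77, 1.64 and 0.81, so its value farthest from 0 was in mouse 3 and above 0 (limma adjusted p = 0.464). Itgb2, the integrin chain gene that neutrophils use to leave vessels, was named after its values were seen. It had 0.83, -0.26, 1.21 and 1.28 (limma adjusted p = 0.112). Without mouse 2 the limma adjusted p was 0.0201, and with another mouse left out it was up to 0.275. Cxcl5 had values near 0 in mice 1 and 4 (-0.19 and -0.01), Cxcl2 had 0 values, and Il1b is not on the array.

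**Figure D4:**
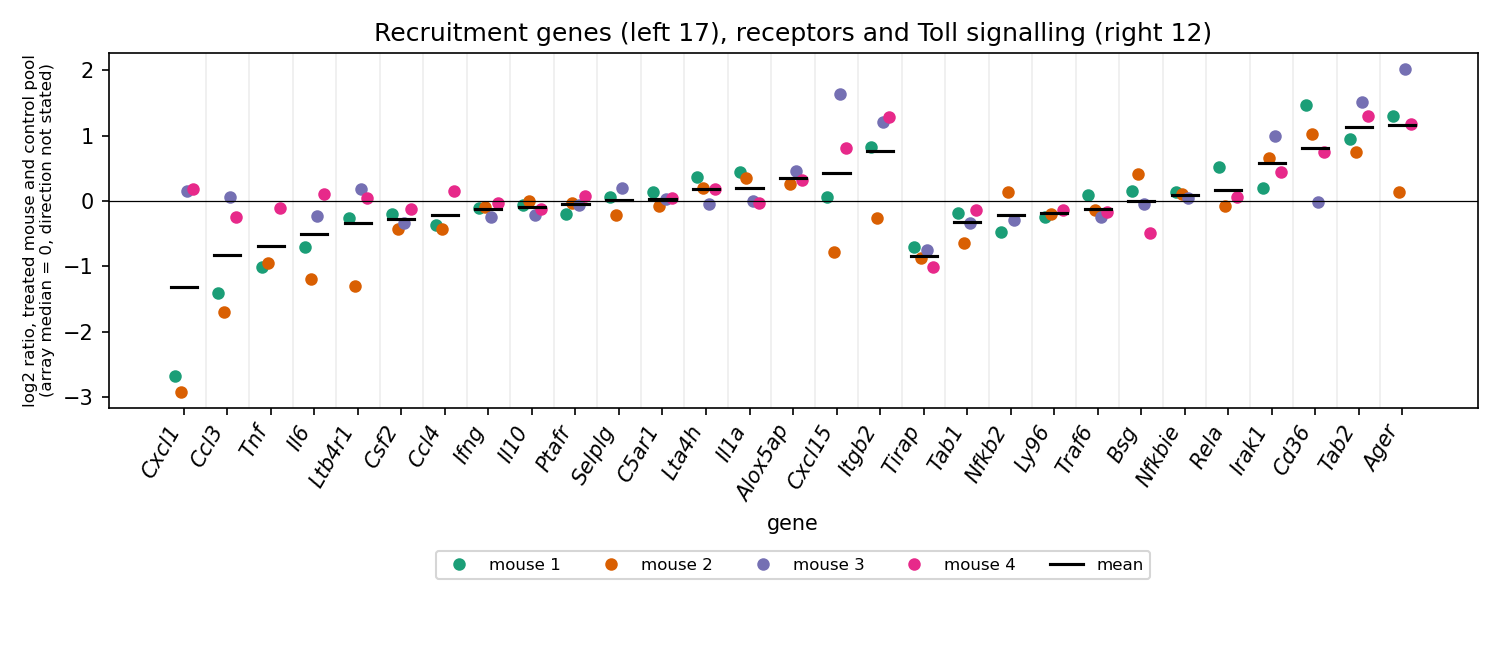
Log2 ratio (vertical axis) of 17 recruitment and cytokine genes and 12 receptor and Toll signalling genes (horizontal axis, each set ordered by mean), with 1 point per mouse and a line at the mean of the mice with a value. Cxcl1 and Ccl3 are below -1 in mice 1 and 2 alone, Cxcl15 is at 1.64 in mouse 3, and Tirap and Tab2 keep to 1 side of 0 in all mice.

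Calprotectin carries arachidonic acid to the phagocyte oxidase. Of 12 genes of that complex and its partners 6 were tested and 0 passed limma, against 12.5% of all genes. An unadjusted p under 0.05 was found for 2 of the 6, against 31.8% of all genes, and the median was -0.18. Cybb, the catalytic subunit gene, had a value in mouse 2 alone (-0.37). Of 20 genes of metal binding and transport, the function calprotectin serves outside the cell, 10 were tested, 0 passed limma above 0 and 1 below (7.69% and 4.81% of all genes), with a median of 0.02. This was Mt2, a zinc-binding metallothionein gene, at -2.87, -1.52 and -1.05 in mice 2, 3 and 4 (mean -1.81 ± 0.94, SD, n = 3; limma adjusted p = 0.0424). It did not pass with mouse 1, 3 or 4 left out or with the block (limma adjusted p up to 0.104), and has no value of its own in mouse 1. Hamp, the gene of the iron hormone hepcidin, named after its values were seen, had -1.29, -0.01, -0.88 and -1.18 (limma adjusted p = 0.0577). Without mouse 2 the limma adjusted p was 0.0201, and with another mouse left out it was up to 0.168. Mt2 was lowest in mouse 2 among its mice and S100a8 nearest to 0 there.

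The genes most like calprotectin over the 4 arrays were searched among the 6055 other genes with 4 values, by the root mean square difference from the mean of S100a8 and S100a9. The subunits differ from each other by 0.25 on this measure. The nearest gene was Hrc, a calcium-binding protein of the sarcoplasmic reticulum, at 0.76, followed by the ATP synthase gene Atp5k at 0.78, the muscle cytochrome oxidase gene Cox7a1 at 0.85 and Atp5j, another ATP synthase gene, at 0.88. The heart peptide gene Nppb (0.90) and the fat cell hormone gene Adipoq (0.91) completed the 6. Each subunit lay 0.12 from that mean, which was made from their own values. The 2 genes were picked for values far from 0, and with Myl1 they alone were below -1.4 on every array. Few genes could therefore lie near them, and shared control of the subunits was not tested. Hrc had -2.68, -0.84, -3.24 and -1.92, so it was nearest to 0 in mouse 2, 1.84 above its value in mouse 1, while S100a9 was level in these mice and S100a8 lower in mouse 2. Atp5k had -1.70, -1.49, -1.99 and -1.27. The likeness rests on 4 values that share the pool.

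**Figure D5:**
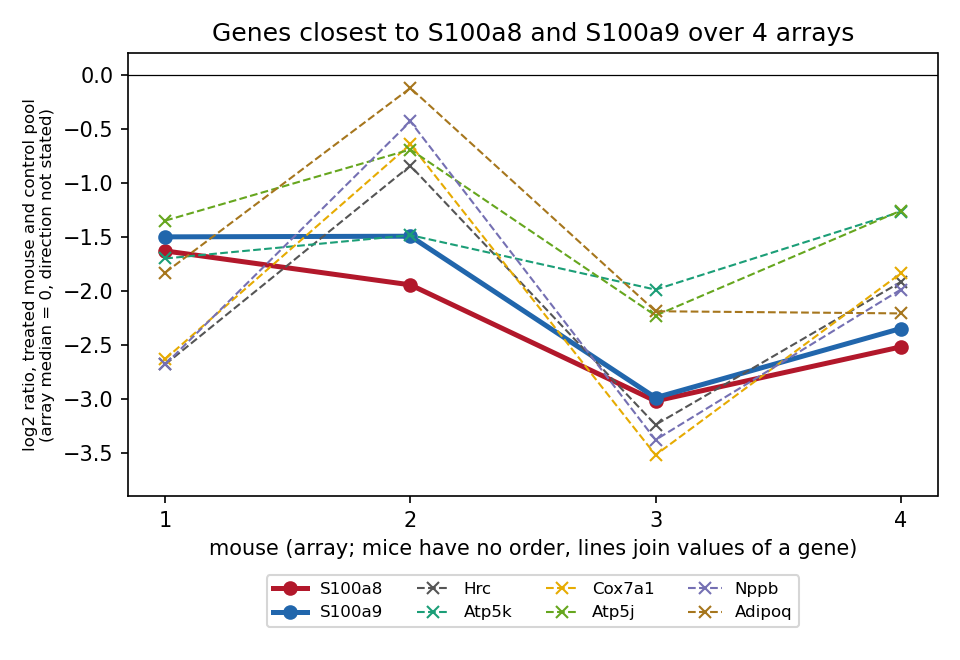
Log2 ratio (vertical axis) in each mouse (horizontal axis) of S100a8 and S100a9 (solid lines) and of the 6 genes nearest to their mean (dashed lines), where lines only join the values of a gene. Hrc, Cox7a1, Atp5j, Nppb and Adipoq are nearest to 0 in mouse 2, between -0.84 and -0.12, while S100a8 and S100a9 stay at -1.95 and -1.50.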

How the data were processed

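For every spot of an array the authors deposited a log ratio, taken here as log2. How it was scanned, corrected and normalized, and why spots are empty, is not given in the sources used here. Other columns of samples numbered 0. Probes were named by an annotation of the platform that can be dated: 14722 spots had 1 symbol, 1 had several and 2557 were unlisted. Each array was centred on its median, and probes of a symbol were averaged. Genes with values on at least 3 of 4 arrays (8384) were tested against 0 with limma 3.58.1 in R 4.3.3. The fit used lmFit and eBayes, two-sided, with Benjamini-Hochberg over all genes and a threshold of 0.05. It was checked on simulated data with independent noise for each mouse. Those data lack the likeness of mice 1 and 2 and of mice 3 and 4, which the check does not cover. Of the 8384 genes, 645 passed above and 403 below 0. The pool counts as 1 control sample. The 2 genes and the 9 gene lists were chosen with earlier results of these data known. Named were the S100 genes, list members that passed (at most 8 a list), 27 fixed genes (9 tested, 11 with too few values, 7 not on the array) and the 6 nearest genes; others are marked. Alternatives were centring, array scale, probe summary, missing-value filter, leaving out each mouse, and a block of mice 1 and 2 and of 3 and 4. Protein sequences were not used here.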

Additional observations from a re-analysis of the deposited data

Results flagged for a closer look

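Of 43 named genes with 4 values, 3 had 1 mouse far from the other 3, by a gap above the critical value of Dixon's test; chance gives about 1 in 20. S100a11 was at -1.26 in mouse 2 and between 0.01 and 0.09 in the other mice. Cd163 was at -0.97 in mouse 3 and between -0.63 and -0.58 in the others. Elane was at 0.26 in mouse 3 and between -0.09 and -0.07 in the others. S100a8 and S100a9 had no such mouse.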

How the results depend on the processing

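The means of S100a8 and S100a9 stayed below 0 and within 1 SD of their values under each alternative run: from -2.49 to -2.03 and from -2.28 to -1.78 with 1 mouse left out, -2.27 and -2.07 without centring, and -2.30 and -2.10 with arrays scaled to 1 width. Of 8384 genes tested, the count past limma fell from 1048 to 317, 573, 296 and 333 when mouse 1, 2, 3 or 4 was dropped. Genes with 3 values then rested on 2 if the dropped mouse held 1 of them. The count fell to 402 with mice 1 and 2, and 3 and 4, as a random block. The share above 0, 61.5% over all mice, was 71.1% with the block. Over the 6057 genes with 4 values, of which 1068 passed, 1 other S100 gene (S100a4) and 0 metal genes passed. Mt2 lacks a value and was left out there. With at least 2 values, where 1019 of 10074 genes passed, 1 marker of stratified epithelium passed (Sfn, at -0.84 and -1.08 in mice 1 and 2). With the block, 1 blood cell and 0 metal genes passed. With 1 mouse left out, the counts ran from 0 to 1 for the 10 neutrophil markers, the 7 blood cell markers and the 17 recruitment genes. They ran from 2 to 4 for the 13 monocyte and macrophage markers and from 0 to 2 for the 10 metal genes. Over all 8384 genes they ran from 296 to 573. The mean of Elane turned to -0.0084 with scaled arrays. With 1 mouse left out, means on both sides of 0 were found for Elane (-0.078 to 0.038), S100a5 (-0.152 to 0.004), S100a11 (-0.409 to 0.041) and S100g (-0.357 to 0.215). The causes were not tested. No paired analysis was possible because the 4 arrays form 1 group. With 4 arrays, no signal strengths and 1 pool, differences the size of the spread between mice could not be resolved.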
